A study of Homo sapiens with 12 samples.

Results

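The aminoacyl-tRNA synthetase genes were taken by symbol from the deposited gene table, which listed 18668 genes. They numbered 35, of which 16 have symbols ending in 2 and form the mitochondrial class, and the other 19 form the cytosolic class. All 35 passed the filter on low counts. Polyadenylated RNA was sequenced from 22Rv1, a single established line of castration-resistant prostate cancer cells, labelled as wild type in every group. Cells received, for 24 h, vehicle, enzalutamide (a drug used against prostate cancer), a ligand described as activating autophagy, or a degrader, which is a molecule designed to remove a target protein. Each of the 4 groups held 3 biologically independent replicates, and the sources used here gave no doses, so compounds are compared at the doses the study chose.

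A synthetase joins its amino acid to the matching tRNA, which then carries it to the ribosome. Cytosolic synthetases supply the ribosomes that translate nuclear genes, and several of them sit together in the multi-tRNA synthetase complex. The mitochondrial enzymes are also encoded in the nucleus, are imported, and supply the ribosomes that make the mitochondrially encoded respiratory chain subunits. GARS1 and KARS1 (glycyl- and lysyl-tRNA synthetase) each make products for both compartments, and no separate mitochondrial gene exists for glutamine, since mitochondria make that charged tRNA by amidation. Many cytosolic synthetase genes are known targets of ATF4, the transcription factor induced when cells lack amino acids or are under other stress, and this factor binds C/EBP-ATF elements in DNA.

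The 12 libraries held between 55.5 and 77.2 M counted reads each. All 6 luminal prostate markers (KLK2, KLK3, HOXB13, KRT8, KRT18 and STEAP1) were listed. By edgeR at an adjusted p under 0.05, all 6 were lower with the degrader, as were 16.4% of all genes tested. Enzalutamide lowered 3 of them (KLK2, KLK3 and STEAP1) and the ligand 1 (KLK2), when 1.44% and 0.237% of all genes were called in either direction. Of 11 markers of basal cells, fibroblasts, leukocytes and endothelium, 4 were listed, the table holding only genes with at least 1 read in every library. KRT5, KRT14, TP63, COL1A2, PTPRC, PECAM1 and CDH5 were not listed. The summed level of the 4 was 14.0 to 14.7 CPM (counts per 1 M reads) in the vehicle libraries and 11.9 to 14.4 CPM in the degrader libraries. Its part in the results below was not tested.

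With the degrader the synthetase genes parted by class. Among cytosolic genes 11 of 19 rose and 5 fell, and among mitochondrial genes 12 of 16 fell and 0 rose, by edgeR's quasi-likelihood test at a Benjamini-Hochberg adjusted p under 0.05. DESeq2 and limma-voom likewise called 0 mitochondrial genes higher, and at an unadjusted p under 0.05 the edgeR test found the same 12 mitochondrial genes and no other. That unadjusted threshold was met by 42.1% of all genes tested, in either direction. Over all 17702 genes tested, 16.4% were called higher and 16.4% lower. The median log2 fold change was 0.29 for the cytosolic class and -0.24 for the mitochondrial class, beside 0.01 over all genes. In bulk RNA, a change in the cells that express a gene and a change in RNA per cell cannot be told apart. The authors' deposited table, read at the same threshold, made the same call for all 19 cytosolic and all 16 mitochondrial genes in each compound's comparison with vehicle.

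**Figure D1:**
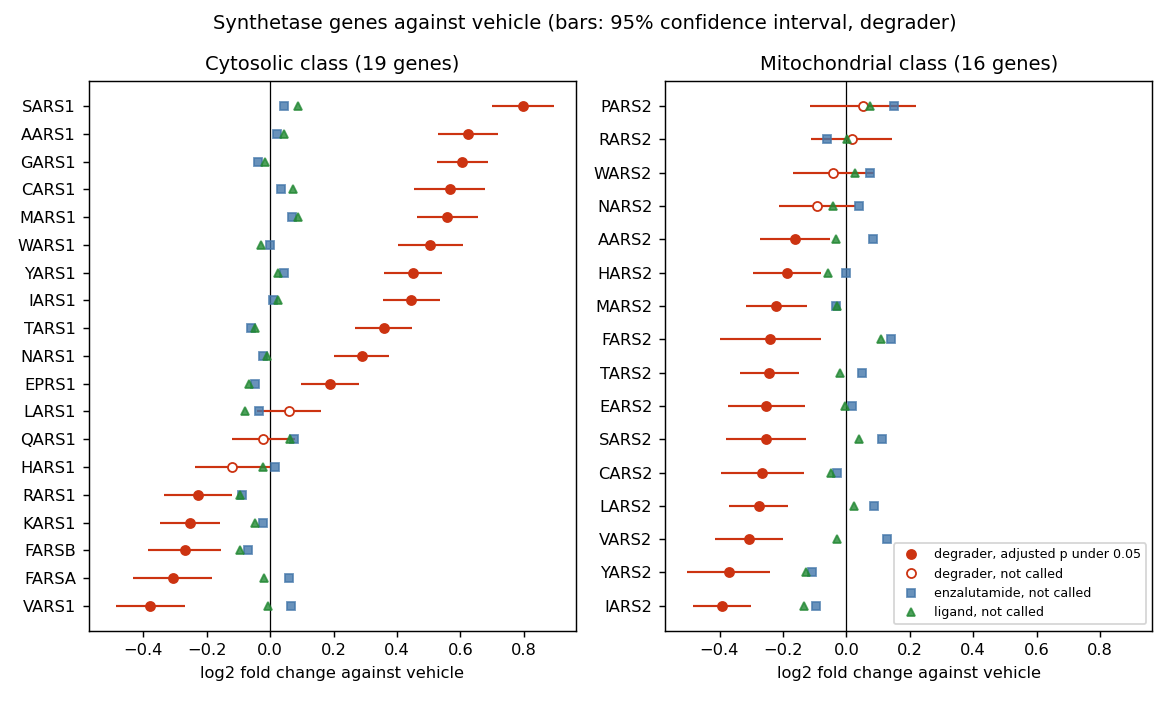
Log2 fold change against vehicle (x axis) of each cytosolic gene (left panel, 19 genes) and each mitochondrial gene (right panel, 16 genes). Circles are the degrader with 95% confidence intervals, filled where adjusted p was under 0.05; squares are enzalutamide and triangles the ligand, none of which was called. Filled circles run from -0.38 to 0.80 in the cytosolic class and from -0.39 to -0.16 in the mitochondrial class.

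The cytosolic gene with the highest fold change was SARS1, seryl-tRNA synthetase. It stood at 161, 153 and 155 CPM in the vehicle libraries and at 281, 263 and 270.2 CPM in the degrader libraries. The 3 enzalutamide libraries (159 to 164 CPM) and the 3 ligand libraries (158 to 175 CPM) lay far below every degrader library. The rise was 0.80 on the log2 scale (SE 0.05, adjusted p = 2.41e-09), or 1.74-fold.

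AARS1, alanyl-tRNA synthetase, was at 307, 299.9 and 299 CPM with vehicle and at 491, 454 and 451 CPM with the degrader. Its 9 libraries without degrader stayed within 299 to 323 CPM. The change was 0.62 (SE 0.05, adjusted p = 2.75e-08). GARS1, the glycyl enzyme for both compartments, showed the tightest degrader libraries of this group: 323, 318 and 325 CPM, against 208, 216 and 211 CPM with vehicle. The change was 0.61 (SE 0.04, adjusted p = 5.19e-09).

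CARS1, cysteinyl-tRNA synthetase, was at 63.7, 61.4 and 60.2 CPM with vehicle and at 97.6, 89.2 and 87.6 CPM with the degrader, a change of 0.57 (SE 0.05, adjusted p = 5.47e-07). WARS1, tryptophanyl-tRNA synthetase, was at 98.7, 93.2 and 96.1 CPM with vehicle and at 142, 128 and 138 CPM with the degrader, a change of 0.50 (SE 0.05, adjusted p = 7.91e-07). In neither gene did a degrader library overlap any of the other 9.

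MARS1, methionyl-tRNA synthetase and a member of the complex, was at 175, 168 and 177 CPM with vehicle and at 265, 249 and 252 CPM with the degrader (0.56, SE 0.05, adjusted p = 1.1e-07). On GRCh38 the gene ends against DDIT3, the stress factor CHOP, which is on the opposite strand and covers 5.05% of the exon bases of MARS1. DDIT3 rose from 36.9 ± 1.14 to 115 ± 10.8 CPM (mean ± SD, n = 3), a log2 change of 1.64. The kit keeps strand, but whether the counting used it is not given in the sources used here, and the part of this overlap in the MARS1 value was not tested.

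Rises below 0.50 on the log2 scale were seen in 5 further cytosolic genes. YARS1, the tyrosyl enzyme, went from 149.6, 152 and 149 to 211, 203 and 202 CPM (0.45, SE 0.04, adjusted p = 7.52e-07). IARS1, the isoleucyl enzyme of the complex, went from 356, 382 and 378 to 498, 501 and 522 CPM (0.45, SE 0.04, adjusted p = 7.95e-07). For threonine TARS1 rose by 0.36 (adjusted p = 7.46e-06), for asparagine NARS1 by 0.29 (adjusted p = 4.86e-05), and EPRS1, whose fused protein charges tRNAs for both glutamate and proline, by 0.19 (adjusted p = 0.00279). The groups of vehicle and degrader libraries did not overlap in any of the 11 genes that rose, against 23.1% of all genes tested without overlap in that direction.

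The promoters of these genes were read because the element ATF4 binds is short enough to be looked for by its letters. RefSeq windows (GRCh38.p14, 250 bases before to 50 after each start site) existed for 30 of the 35 genes, 16 cytosolic and 14 mitochondrial, and AARS2, LARS1, VARS1, VARS2 and YARS1 had no entry. The letters TGATGNAA, the core of the C/EBP-ATF element, were searched on both strands. They occurred in 7 of the 10 cytosolic genes with a window that rose. They occurred in 0 of the 4 that fell, in 0 of the 2 that were not called, and in 1 of the 14 mitochondrial genes. Among all 35116 windows 3.62% held them, and among all 27305 genes with a window 4.46% did, a gene with several starts having several windows. Among tested genes with a window the share was 4.27% of those called higher, 2.3% of those called lower and 2.54% of the rest. The 8 matches are shown with 11 bases on either side, 5′ to 3′ in the direction of the gene, with the match in capitals:
AARS1: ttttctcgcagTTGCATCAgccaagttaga
CARS1: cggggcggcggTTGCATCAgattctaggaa
GARS1: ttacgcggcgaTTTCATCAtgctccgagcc
IARS1: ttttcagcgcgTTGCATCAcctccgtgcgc
MARS1: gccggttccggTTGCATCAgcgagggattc
NARS1: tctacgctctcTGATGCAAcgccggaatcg
TARS1: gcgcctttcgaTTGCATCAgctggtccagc
YARS2: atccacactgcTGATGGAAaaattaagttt

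These stretches lie at chr16:70289675-70289704 on the minus strand (AARS1), chr11:3057407-3057436 minus (CARS1), chr7:30594834-30594863 plus (GARS1), chr9:92293692-92293721 minus (IARS1), chr12:57488053-57488082 plus (MARS1), chr18:57621804-57621833 minus (NARS1), chr5:33440956-33440985 plus (TARS1) and chr12:32756076-32756105 minus (YARS2). In CARS1, IARS1, MARS1 and TARS1 the match begins within 13 bases of the annotated start, in GARS1 it begins 33 bases before it and in NARS1 15 bases after it. In AARS1 it lies farther off, 187 bases before the start. The same letters, TTGCATCA or their reverse complement, made up the match in 6 of the 7 cytosolic genes, GARS1 being the exception. TTGCATCA is a form that the search for TGATGNAA also finds, so these matches are part of those counted above and not a separate result. It occurred in 0.866% of all windows and in 1.08% of all genes with a window. The single mitochondrial match, in YARS2, is of another form and lies 197 bases before the start of a gene that fell. The cAMP response element TGACGTCA, another sequence known to be bound by factors of this family, was in none of the 30 genes. It was in 1.85% of all windows and in 2.25% of all genes with a window. A match describes the letters of the window and not binding. EPRS1, SARS1 and WARS1 rose without a match in their windows.

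Of the 5 cytosolic genes that fell, VARS1, valyl-tRNA synthetase, fell by the most. It was at 299, 292 and 279 CPM with vehicle and at 229, 225 and 215 CPM with the degrader (-0.38, SE 0.05, adjusted p = 3.44e-05). All 3 degrader libraries were below the 9 others, whose lowest was 272 CPM.

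FARSA and FARSB encode the alpha and beta subunits of the phenylalanyl enzyme, which works only as an assembly of both, and they fell together. FARSA went from 154, 144.5 and 148 to 128, 119 and 114 CPM (-0.31, SE 0.06, adjusted p = 0.000725). FARSB went from 135, 138.5 and 130.5 to 106, 110.0 and 119 CPM (-0.27, SE 0.05, adjusted p = 0.00112). KARS1, the lysyl enzyme of both compartments, fell by 0.25 on the log2 scale (adjusted p = 0.000339) and RARS1, the arginyl enzyme, by 0.23 (adjusted p = 0.00244). GARS1 and KARS1, the genes that serve both compartments, therefore moved in opposite directions.

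The other 3 cytosolic genes did not pass the test. The log2 fold change of HARS1 (histidyl) was -0.12, with a 95% confidence interval of -0.24 to -0.0018 and an adjusted p of 0.113, although its degrader libraries (63.6 to 70.2 CPM) lay below all 3 vehicle libraries (71.1 to 72.0 CPM). That of LARS1 (leucyl) was 0.06 (interval -0.04 to 0.16, adjusted p = 0.375) and that of QARS1 (glutaminyl) was -0.02 (interval -0.12 to 0.08, adjusted p = 0.761). The intervals exclude changes of the size seen in SARS1.

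**Figure D2:**
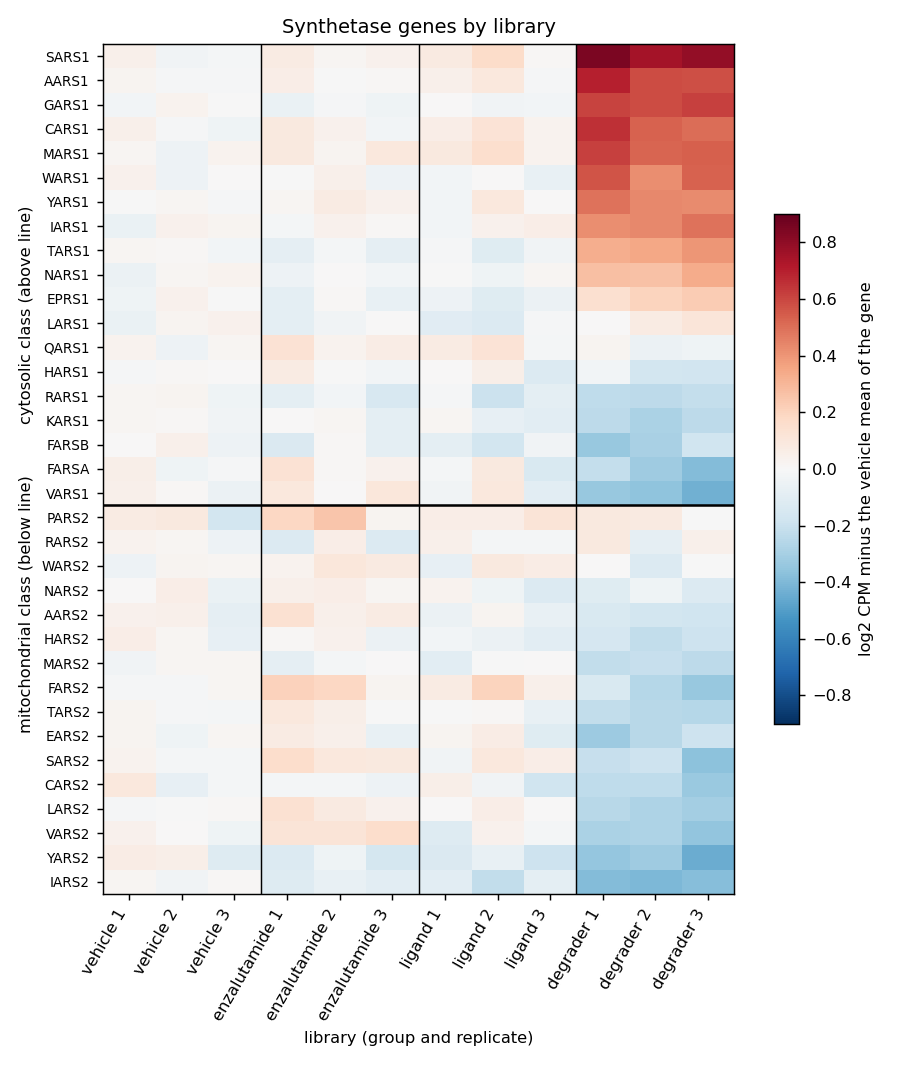
Log2 CPM of each gene in each of the 12 libraries minus the mean of its 3 vehicle libraries (color scale, red above and blue below), with the cytosolic genes above the horizontal line and the mitochondrial genes below it. The 3 degrader columns hold the strong colors, red for the upper cytosolic rows and blue for most mitochondrial rows, while the 9 other columns stay pale.

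Directions were mixed within the multi-tRNA synthetase complex. Of its 7 synthetase genes (EPRS1, IARS1, KARS1, LARS1, MARS1, QARS1 and RARS1), 3 rose and 2 fell, with a median log2 fold change of 0.06. Of the 12 cytosolic genes outside it, 8 rose and 3 fell, with a median of 0.40. The 3 non-enzymatic scaffold genes of the complex were not called: AIMP1 was at -0.03 (adjusted p = 0.702), AIMP2 at -0.03 (adjusted p = 0.719) and EEF1E1 at 0.10 (adjusted p = 0.313). The structural classes of the catalytic domain were also mixed, with 5 of 9 class I genes higher and 2 lower, and 5 of 9 class II genes higher and 3 lower; EPRS1, with a domain of each, was counted in neither.

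In the mitochondrial class IARS2, the isoleucyl enzyme, had the largest fall and the smallest adjusted p. It was at 392, 378 and 389 CPM with vehicle and at 295, 292 and 296 CPM with the degrader (-0.39, SE 0.04, adjusted p = 3.32e-06). Its enzalutamide libraries (356 to 369 CPM) and ligand libraries (331 to 363 CPM) lay between these groups without touching either. The log2 fold changes of IARS2 with enzalutamide (-0.09, unadjusted p = 0.0427, adjusted p = 0.479) and with the ligand (-0.13, unadjusted p = 0.00621, adjusted p = 0.39) did not pass the test.

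LARS2, the leucyl enzyme, had the next smallest adjusted p. It was at 81.7, 82.2 and 83.0 CPM with vehicle and at 69.2, 68.0 and 66.6 CPM with the degrader (-0.28, SE 0.04, adjusted p = 0.000136). YARS2, the tyrosyl enzyme, was at 40.2, 39.9 and 35.5 CPM with vehicle and at 30.3, 30.8 and 28.3 CPM with the degrader (-0.37, SE 0.06, adjusted p = 0.000213). VARS2, the valyl enzyme, was at 52.6, 51.3 and 49.8 CPM with vehicle and at 42.0, 42.2 and 40.0 CPM with the degrader (-0.31, SE 0.05, adjusted p = 0.000216). In all 3 genes every degrader library was below every vehicle library. VARS2 shares 22% of its exon bases with GTF2H4 on the same strand, whose log2 fold change was -0.11 (adjusted p = 0.188), and the part of that overlap was not tested.

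The other 8 mitochondrial genes that fell did so by similar amounts. CARS2 (cysteinyl) fell by 0.26 on the log2 scale (adjusted p = 0.00333), EARS2 (glutamyl) by 0.25 (adjusted p = 0.00275), SARS2 (seryl) by 0.25 (adjusted p = 0.0037) and TARS2 (threonyl) by 0.24 (adjusted p = 0.000442). TARS2 stood at 93.3, 90.9 and 90.5 CPM with vehicle and at 78.5, 76.9 and 76.7 CPM with the degrader, below all 9 other libraries. FARS2 (phenylalanyl) fell by 0.24 (adjusted p = 0.0216), MARS2 (methionyl) by 0.22 (adjusted p = 0.00132), HARS2 (histidyl) by 0.19 (adjusted p = 0.00844) and AARS2 (alanyl) by 0.16 (adjusted p = 0.0243). The calls of AARS2 and FARS2 were close to the threshold. Without vehicle replicate 1 or 2 or degrader replicate 2 or 3 the log2 fold change of AARS2 was -0.16 to -0.14 with an adjusted p of 0.0707 to 0.103. Without vehicle replicate 2 or 3 or degrader replicate 2 or 3 that of FARS2 was -0.24 to -0.19 with an adjusted p of 0.0501 to 0.0921.

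Not called were NARS2 (asparaginyl, -0.09, interval -0.21 to 0.03), PARS2 (prolyl, 0.05, interval -0.12 to 0.22), RARS2 (arginyl, 0.02, interval -0.11 to 0.15) and WARS2 (tryptophanyl, -0.04, interval -0.17 to 0.09). In each of these 4 the vehicle and degrader libraries overlapped. The 12 genes that fell were also those whose groups did not overlap, against 22.1% of all genes tested without overlap in that direction.

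The classes were then set side by side within each library as the mean log2 CPM of the 19 cytosolic genes minus that of the 16 mitochondrial genes. This difference was 1.82, 1.83 and 1.87 in the vehicle libraries and 2.24, 2.22 and 2.27 in the degrader libraries. It was 1.79 to 1.83 in the enzalutamide libraries and 1.84 to 1.86 in the ligand libraries. The group means were 2.25 ± 0.03 for the degrader, 1.84 ± 0.02 for vehicle, 1.81 ± 0.02 for enzalutamide and 1.85 ± 0.01 for the ligand (SD, n = 3). Every degrader library stood above all 9 others, and the groups without degrader lay within 1.79 to 1.87. Because the genes were chosen with earlier results known, the difference is given without a test.

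**Figure D3:**
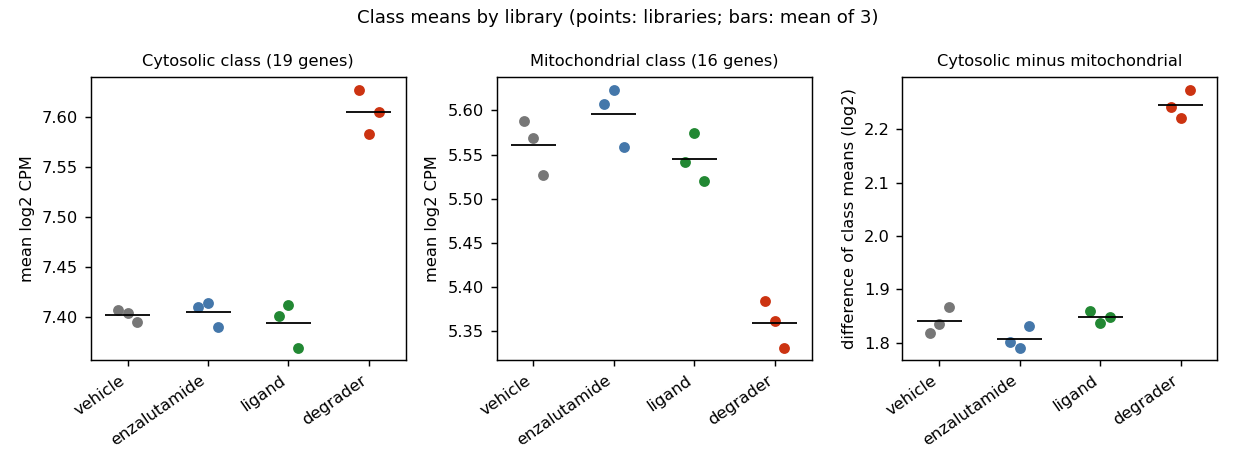
Mean log2 CPM of the cytosolic genes (left), of the mitochondrial genes (middle) and their difference (right) in each library; points are libraries and bars the mean of 3. The degrader libraries are the highest in the left and right panels and the lowest in the middle panel.

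Genes for the same amino acid gave 17 cytosolic and mitochondrial pairs, EPRS1 being paired with both EARS2 and PARS2, and FARS2 with both FARSA and FARSB. In 11 pairs the log2 ratio of cytosolic to mitochondrial CPM was higher in all 3 degrader libraries than in any of the other 9, and in 0 pairs was it lower in all 3. The seryl pair parted the most, its log2 ratio being 2.51, 2.48 and 2.49 with vehicle and 3.55, 3.43 and 3.65 with the degrader. In the isoleucyl pair, whose genes stood at nearly the same CPM with vehicle (log2 ratio -0.14, 0.01 and -0.04), the ratio was 0.75, 0.78 and 0.82 with the degrader.

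The valyl and phenylalanyl pairs moved together instead. VARS1 and VARS2 both fell, and their fold changes differed by -0.07 on the log2 scale. FARSA and FARS2 differed by -0.07, and FARSB and FARS2 by -0.03. For histidine the difference was 0.07, with HARS1 not called and HARS2 lower. The arginyl pair had the opposite order, with RARS1 lower and RARS2 not called, and a difference of -0.25. These differences are given without a test.

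**Figure D4:**
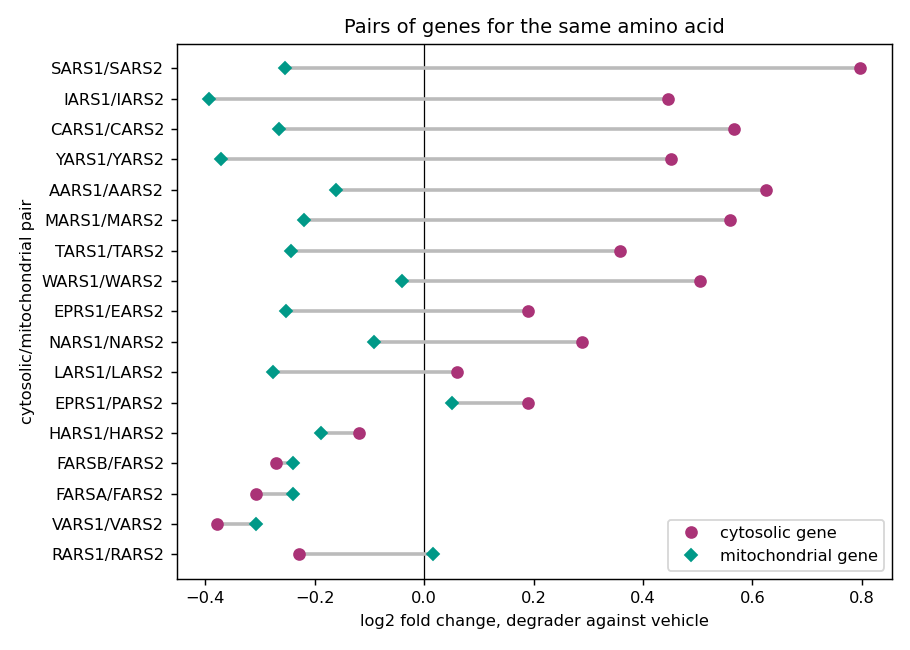
Log2 fold change, degrader against vehicle (x axis), of the cytosolic gene (circle) and mitochondrial gene (diamond) of each of 17 pairs, joined by a line and ordered by their difference. The circle lies to the right of the diamond in 13 pairs, most widely for serine (1.05), and to its left in the phenylalanyl, valyl and arginyl pairs.

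Enzalutamide and the ligand were each compared with the same 3 vehicle libraries. With neither compound was a synthetase gene called: 0 of 35 passed the edgeR test with enzalutamide, when 1.44% of all genes did, and 0 of 35 with the ligand, when 0.237% did. DESeq2 and limma-voom also called 0 in both comparisons. At an unadjusted p under 0.05 there were 2 genes with enzalutamide (IARS2 and VARS2) and 1 with the ligand (IARS2), beside 9.88% and 7.33% of all genes tested. VARS2 stood at 55.4, 55.5 and 57.1 CPM with enzalutamide, above its vehicle libraries, with a log2 fold change of 0.13 (unadjusted p = 0.0222, adjusted p = 0.374).

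The log2 fold changes lay between -0.11 and 0.15 with enzalutamide and between -0.13 and 0.11 with the ligand. Over the 35 genes the 95% confidence intervals reached from -0.24 to 0.32 with enzalutamide and from -0.26 to 0.27 with the ligand. Class medians were 0.01 (cytosolic) and 0.04 (mitochondrial) with enzalutamide, and -0.02 in both classes with the ligand. With enzalutamide, 6 mitochondrial genes (AARS2, FARS2, LARS2, SARS2, VARS2 and WARS2) had all 3 libraries above all vehicle libraries, against 8.87% of all genes in that direction, and none of the 6 passed the test.

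The direct tests between compounds gave nearly the picture seen against vehicle. Against enzalutamide the degrader libraries had 11 cytosolic genes higher and 5 lower, and 0 mitochondrial genes higher and 12 lower, beside 16.3% higher and 16.1% lower over all genes tested. DESeq2 and limma-voom also called 0 mitochondrial genes higher here and against the ligand, and 0 were higher at an unadjusted p under 0.05. Over all genes, 42% met that unadjusted threshold against enzalutamide and 38.8% against the ligand, in either direction. The smallest mitochondrial adjusted p against enzalutamide was that of VARS2 (-0.44, SE 0.05, adjusted p = 7.27e-06), whose enzalutamide libraries were above its vehicle libraries. FARS2 differed by -0.38 (adjusted p = 0.000986) and IARS2 by -0.30 (adjusted p = 5.93e-05). The calls of RARS1 (-0.14, adjusted p = 0.0449) and FARSB (-0.20, adjusted p = 0.00958) were lost without enzalutamide replicate 2 (-0.11, adjusted p = 0.165, and -0.16, adjusted p = 0.0577), which left 3 cytosolic genes lower. Without enzalutamide replicate 1 or any 1 degrader replicate, RARS1 kept a log2 fold change of -0.15 to -0.13 but did not pass (adjusted p = 0.079 to 0.117).

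Against the ligand 12 cytosolic genes were higher and 4 lower, and 0 mitochondrial genes were higher and 10 lower, beside 14.3% higher and 14.2% lower over all genes. LARS1 joined the genes called higher (0.14, adjusted p = 0.0423), and RARS1 (-0.13, adjusted p = 0.0622), AARS2 (-0.13, adjusted p = 0.0765) and HARS2 (-0.13, adjusted p = 0.0614) did not pass. FARSB was lower (-0.17, adjusted p = 0.0239), as was CARS2 (-0.22, adjusted p = 0.0153). These 3 calls were close to the threshold. Without ligand replicate 1 or 2 or degrader replicate 2 or 3 the log2 fold change of LARS1 was 0.11 to 0.13 (adjusted p = 0.124 to 0.18). Without ligand replicate 1 or 3 or degrader replicate 1 or 2 that of FARSB was -0.17 to -0.14 (adjusted p = 0.0653 to 0.102). That of CARS2 was -0.16 without ligand replicate 1 (adjusted p = 0.0927) and -0.19 without degrader replicate 3 (adjusted p = 0.0595). Class medians were 0.31 and -0.25 against enzalutamide and 0.30 and -0.22 against the ligand, cytosolic first. These comparisons and that with vehicle share the 3 degrader libraries.

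Levels of different genes were compared on the FPKM scale (fragments scaled to transcript length and library size), as deposited. In the vehicle libraries the cytosolic median was 63.7 FPKM (range 17.8 to 92.3) and the mitochondrial median was 14.3 FPKM (range 5.08 to 98.9). IARS2 was the exception in its class, and at 99.8, 98.2 and 98.7 FPKM it was the highest of all 35 genes. The next mitochondrial gene, TARS2, was at 31.0 ± 0.626 FPKM, and the lowest of all was PARS2 at 5.08 ± 0.540 FPKM (SD, n = 3). EPRS1 (92.3 ± 3.45 FPKM), NARS1 (87.6 ± 3.20 FPKM) and KARS1 (82.0 ± 2.17 FPKM) followed IARS2. The lowest cytosolic genes were FARSB (17.8 ± 0.738 FPKM) and CARS1 (21.8 ± 0.700 FPKM). In this order 14 of the 34 pairs of neighbours had overlapping vehicle libraries, among them EPRS1 with NARS1 and KARS1 with AARS1, so their ranks were not separated beyond the spread.

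With the degrader the order at the top was another. AARS1 stood at 126 ± 6.08 FPKM, GARS1 at 119 ± 0.396 FPKM and SARS1 at 114 ± 3.93 FPKM, followed by NARS1 at 107 ± 2.15 FPKM and EPRS1 at 105 ± 2.97 FPKM, and IARS2 was at 75.5 ± 0.153 FPKM. With the degrader the cytosolic median was 62.0 FPKM, near that with vehicle although 11 genes rose, and the mitochondrial median was 11.8 FPKM.

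**Figure D5:**
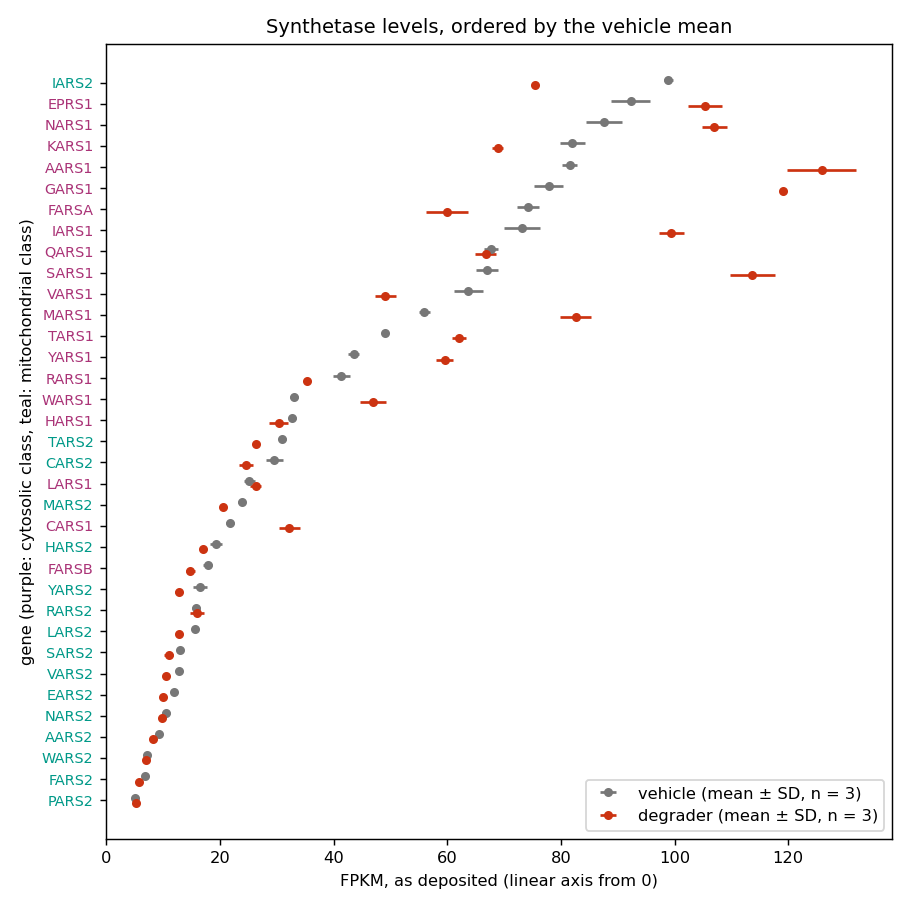
FPKM of the 35 genes (x axis, linear from 0) with vehicle (gray) and degrader (red), mean ± SD over 3 libraries, ordered by the vehicle mean; purple names are cytosolic and teal names mitochondrial. IARS2 tops the vehicle order at 98.9 FPKM and drops to 75.5 FPKM, while AARS1, GARS1, SARS1, NARS1 and EPRS1 stand between 105 and 126 FPKM with the degrader.

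Other genes of tRNA charging were read from lists. Of 6 helpers of the mitochondrial side, 4 fell and 0 rose with the degrader, beside 16.4% of all genes in each direction. Their median log2 fold change was -0.21. By DESeq2 5 fell and 0 rose, and by limma-voom 4 and 0. At an unadjusted p under 0.05 edgeR had 5 lower and 0 higher, beside 42.1% of all genes in either direction. The largest fall among the helpers was in TSFM, the mitochondrial elongation factor Ts, from 73.3, 76.2 and 69.4 to 54.5, 57.4 and 55.9 CPM (-0.38, adjusted p = 1.76e-05). TUFM, the mitochondrial elongation factor Tu that receives charged tRNA, fell by 0.29 on the log2 scale (adjusted p = 0.00229). GATB, a subunit of the amidation enzyme for glutamine, fell by 0.24 (adjusted p = 0.00694), and MTFMT, which formylates the initiator methionyl-tRNA, by 0.17 (adjusted p = 0.049). The other amidation subunits, QRSL1 (0.03, adjusted p = 0.694) and GATC (-0.11, adjusted p = 0.0822), were not called.

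Among 7 scaffold and elongation factor genes of the cytosolic side, 1 rose and 0 fell, by DESeq2 and limma-voom as well. This count, like that of the next list, is near the 16.4% called in each direction over all genes. At an unadjusted p under 0.05 edgeR had 2 higher and 0 lower, beside 42.1% of all genes in either direction. The called gene was EEF1A1, the factor that brings charged tRNA to the cytosolic ribosome, at 6664, 6106 and 6412 CPM with vehicle and 8501, 7890 and 7746 CPM with the degrader (0.33, adjusted p = 0.000113). Of 6 second copies and proofreading or selenocysteine helpers, 0 rose and 1 fell by all 3 tools (at an unadjusted p under 0.05 edgeR had 1 higher and 1 lower), namely AARSD1, an alanyl-tRNA editing protein (-0.20, adjusted p = 0.0153). TARS3, a second cytosolic threonyl-tRNA synthetase gene, was at 6.78 to 6.89 CPM with vehicle and was not called (0.08, adjusted p = 0.514), whereas TARS1 rose.

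Of 20 genes of tRNA maturation and export, 2 rose and 7 fell, beside 16.4% of all genes in each direction, with a median of -0.09. XPOT, the exporter that carries mature tRNA out of the nucleus, went from 311, 328 and 321 to 502, 520.3 and 549 CPM (0.71, SE 0.05, adjusted p = 2.43e-08), a change between those of AARS1 and SARS1. TSEN15, a subunit of the tRNA splicing endonuclease, rose by 0.22 (adjusted p = 0.00619). POP1, a protein subunit of ribonuclease P, went from 33.4, 35.2 and 33.9 to 22.4, 21.4 and 22.9 CPM (-0.62, SE 0.06, adjusted p = 1.59e-06). ELAC2, which trims the 3′ ends of tRNA precursors, fell by 0.35 (adjusted p = 4.13e-05) and SSB, the La protein that binds those precursors, by 0.32 (adjusted p = 0.000566). All 3 genes of mitochondrial ribonuclease P fell, TRMT10C by 0.41 (adjusted p = 0.00316), HSD17B10 by 0.23 (adjusted p = 0.0176) and PRORP by 0.21 (adjusted p = 0.00998). LARP7, a protein of the La family, fell by 0.20 (adjusted p = 0.0426).

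The enzymes that make amino acids and are known ATF4 targets were set beside the synthetases. Of 10 such genes 9 rose and 1 fell with the degrader, beside 16.4% of all genes in each direction, with a median of 0.49. ASNS, asparagine synthetase, went from 186, 192.5 and 171 to 359, 328 and 354 CPM (0.92, SE 0.05, adjusted p = 2.03e-09), and PHGDH, the first enzyme of serine synthesis, from 158, 154 and 152 to 313, 294 and 282 CPM (0.94, SE 0.06, adjusted p = 5.52e-09). PSAT1 of the same serine route rose by 0.52 (adjusted p = 1.68e-07) and CBS, which joins serine to homocysteine, by 0.58 (adjusted p = 1.43e-06). ALDH18A1, the enzyme that starts proline synthesis, fell by 0.24 (adjusted p = 0.000119). ASNS makes the amino acid that NARS1 joins to tRNA, PHGDH starts the synthesis of the one that SARS1 joins, and all 4 rose. For proline, ALDH18A1 fell, PYCR1 of the same route and EPRS1 rose, and PARS2 was not called. Synthesis and charging were not compared over the other amino acids. With enzalutamide and with the ligand, 0 genes of these 5 lists were called by edgeR or limma-voom, and DESeq2 called 1 gene of the amino acid list lower with enzalutamide and 1 higher with the ligand. At an unadjusted p under 0.05 edgeR had, with enzalutamide, 1 mitochondrial helper higher, 2 maturation genes lower and 1 amino acid gene lower. With the ligand it had 2 maturation genes lower, and 2 amino acid genes higher and 1 lower. That unadjusted threshold was met by 9.88% of all genes with enzalutamide and 7.33% with the ligand, in either direction.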

How the data were processed

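Per the labels' protocols, poly(A) libraries were made with a stranded kit, and per the submitters' processing notes reads were processed with HISAT2 and StringTie on GRCh37. Versions, and the use of strand in counting, are not given in the sources used here. Per the file headers, the authors deposited a raw read count and an FPKM for each gene and library. The authors' deposited table also gives a fold-change score and a p-value, adjusted by them, for each compound against vehicle. Libraries held 55.5 to 77.2 M counted reads. Over all genes but those with the fewest reads, replicates differed by a chi-square of 5.40 to 22.0 per degree of freedom, more than counting error alone gives. This was not computed for the synthetase genes by themselves, and counting error weighs more in those with fewer reads, such as FARS2 and PARS2.

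Of 18668 genes, 17702 passed filterByExpr (minimum count 10, total 15). edgeR 4.0.16 (R 4.3.3) fitted robust quasi-likelihood models to all 12 libraries with TMM factors (0.987 to 1.016) and group as the term, with 8 residual degrees of freedom. Adjustment was Benjamini-Hochberg over all genes tested, with calls at 0.05. Alternatives were DESeq2 1.42.0, limma 3.58.1 (voom), other scalings, no filter, 2 groups only, a replicate block and single libraries left out. CPM are TMM-scaled, and class means of log2 CPM use a prior count of 2. Overlaps between genes come from GENCODE on GRCh38, and promoter windows from RefSeq.

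Every member is named. Values per library are given for cytosolic changes of at least 0.5, for the members with the smallest adjusted p in each degrader comparison (6 cytosolic, 4 mitochondrial) and for the up to 4 called genes of each list with the smallest p; VARS1, FARSA, FARSB and other values beyond this were chosen after their values were seen. The members and lists were chosen with earlier results of these data known. Replicates are biologically independent per the labels. The target of the degrader is not reported here.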

Additional observations from a re-analysis of the deposited data

How the results depend on the processing

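With the degrader against vehicle, 442 of 455 values of single genes under an alternative kept their direction and side of the threshold, and 26 of 28 calls held whichever library was left out. The uncalled PARS2 turned to -0.0262 without vehicle replicate 3, and RARS2 to -0.0055 without vehicle replicate 3 and to -0.0190 without degrader replicate 1, their ranges with single libraries left out being -0.0262 to 0.0972 and -0.0190 to 0.0669. The difference between class medians was 0.53 against vehicle, 0.56 against enzalutamide and 0.52 against the ligand. With means in place of medians it was 0.4060, 0.4378 and 0.3971, and with single libraries left out 0.4727 to 0.5459, 0.5205 to 0.5844 and 0.4709 to 0.5522. Cytosolic genes lower against enzalutamide numbered 3 to 5 with single libraries left out. With TTGCATCA in place of TGATGNAA, 0 mitochondrial and 6 cytosolic genes matched, and these 6 are among the genes that TGATGNAA finds. Calls near the threshold were lost at a like fold change: RARS1 against enzalutamide with library totals as the only scaling (adjusted p = 0.0587), LARS1 against the ligand with DESeq2 size factors (0.0576), no filter (0.0547) or only the 2 groups (0.102), and FARSB against the ligand with only the 2 groups (0.0513).

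Replicate numbers are shared between groups, and the main fit did not pair the libraries by them. Of 18 same-numbered pairs, 7 had correlated deviations over 0.1. With a replicate block the degrader against vehicle gave 11 cytosolic genes higher and 6 lower (HARS1 added, adjusted p = 0.0413) and 0 mitochondrial genes higher and 12 lower. With this block 0 of 35 were called for enzalutamide or the ligand, while calls over all genes went from 255 to 553 and from 42 to 191. With the degrader against vehicle, the block took calls over all genes from 5795 to 7265. By correlation of deviations, 11 of 12 libraries were closest to one of their own number. An effect shared by same-numbered libraries was modelled only in the replicate block. HARS1 was also called without degrader replicate 1 (adjusted p = 0.0423).

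With 3 libraries a group, a gene that did not pass the test with enzalutamide or the ligand is not shown to be unchanged. Doses were not given, and 1 cell line at 1 time was measured.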

Other observations

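Some neighbours that overlap synthetase genes on GRCh38 moved with the degrader, when 16.4% of all genes were called higher and 16.4% lower. Other neighbours were not called, among them TERF2IP, ARHGAP9, WDR25, S100PBP, ING1, UBFD1, ZMAT2 and GTF2H4. MRPS12, a mitochondrial ribosomal protein gene that shares 10.8% of the exon bases of SARS2 on the opposite strand, fell from 50.2 ± 3.39 to 38.0 ± 2.54 CPM (mean ± SD, n = 3; log2 fold change -0.40, adjusted p = 0.00026). SARS2 also shares 46.2% of its exon bases with a protein-coding gene on the same strand that was not listed. WARS2-AS1, an antisense RNA covering 4.68% of the exon bases of WARS2, rose from 11.6 ± 0.653 to 15.6 ± 1.11 CPM (0.43, adjusted p = 0.000346), while WARS2 itself was not called. HARS1 and HARS2 lie on opposite strands, and the shared bases make up 5.56% of the exon bases of HARS1 and 11.7% of those of HARS2. WDR55, the other neighbour of HARS1, fell by 0.18 on the log2 scale (adjusted p = 0.0126). DNM1L, the mitochondrial fission enzyme, overlaps YARS2 without sharing exon bases and fell by 0.25 (adjusted p = 0.00473). In all, 6 of the 35 genes overlapped a listed gene on the same strand and 11 one on the opposite strand. The part of these overlaps in the synthetase values was not tested.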
